A study of Mus musculus with 2 samples.

Results

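The Wnt ligands, their receptors and their antagonists were examined in RNA sequencing of primary chondrocytes, the cells of cartilage, that had been taken from mouse ribs and grown as a monolayer. The genes were chosen by name, with earlier results of these data known, and 53 of the 22156 genes in the deposited table belonged to them. They were 19 Wnt genes, 10 frizzled receptor genes, the LRP co-receptor genes *Lrp5* and *Lrp6*, the receptor kinase genes *Ror1* and *Ror2*, 6 genes of secreted Wnt-binding antagonists, 4 Dickkopf genes, 4 R-spondin genes with 3 LGR receptor genes, and *Axin2*, *Rnf43* and *Znrf3*. The series holds 1 library from control mice, labelled WT and described as littermates with floxed *Myl3*, and 1 library from *Myl3*-KO mice, in which a Cre recombinase driven by the *Col2a1* promoter acts on floxed *Myl3*. All cells came from newborn mice on the C57BL/6J background and received no treatment, and the number of mice behind each library is not given in the sources used here. The comparison asked which of these genes differ between the control library and the *Myl3*-KO library, whose cells the labels name primary chondrocytes. *Myl3* is a myosin light chain gene.

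Wnt proteins are secreted, lipid-modified signals that bind frizzled receptors on the cell surface. With LRP5 or LRP6 they keep beta-catenin from being degraded, so that it can act with TCF and LEF factors in the nucleus, whereas other Wnt signals run through ROR receptors, cell polarity proteins and calcium. In cartilage, beta-catenin signaling is known for driving chondrocytes towards hypertrophy and bone formation, and *Wnt5a* and *Wnt5b* for steps of chondrocyte differentiation in the growth plate.

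The libraries held 17612434.91 expected counts (estimated reads per gene, not normalized) for the control and 13477976.98 for *Myl3*-KO, so 3 counts, taken as the floor, stood for 0.17 and 0.223 CPM (counts scaled to the library total). *Myl3* itself was at 0 counts in both libraries, and the deletion could not be checked from the counts. Among 15 chondrocyte markers, 8 were above 0 in the control and 10 in *Myl3*-KO, with summed levels of 120 and 121 CPM. Most of that sum came from the transcription factor genes *Sox5* and *Sox9*, with means over both libraries of 50.7 and 42.4 CPM. *Sox5* had a log2 fold change of 0.00 (interval -0.14 to 0.15). *Sox9* was lower (log2 fold change -0.47) and *Col11a2* higher (0.82) in *Myl3*-KO, both beyond counting error. *Acan*, *Matn1*, *Matn3*, *Hapln1* and *Cnmd* were at 0 in both libraries, and the defining marker *Col2a1* had 30 and 27 counts. Fibroblast and perichondrium markers summed to 17119 and 19568 CPM, mostly from *Col1a2* (mean 13028 CPM, log2 fold change 0.22). Of the 10 tested, 5 were higher and 3 lower beyond counting error in *Myl3*-KO, limits passed by 18.6% and 16.8% of all genes tested. *Dcn* (log2 fold change -1.64) and *Lum* (-1.36) were among the lower and *Pdgfrb* (0.71) among the higher. Muscle markers summed to 4.26 and 21.6 CPM, nearly all from *Cdh15*, with *Myod1*, *Myf5*, *Myog*, *Pax7* and *Des* at 0 in both libraries. Osteoblast markers summed to 245 and 242 CPM, although 1 of 4 tested was higher and 2 were lower beyond counting error, *Alpl* with 46 and 7 counts (log2 fold change -2.33) and *Phex* (-0.36). The cells are called chondrocytes after their labels, while in both libraries the chondrocyte sum was below the fibroblast and osteoblast sums. Immune and endothelial markers stayed at or below 2.08 CPM in sum. The part of the marker differences between the libraries in the Wnt gene values was not tested, and in bulk RNA fewer cells of a type and less RNA per cell cannot be told apart.

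Of the 53 genes, 29 had at least 10 counts over both libraries and were tested, 7 had fewer, and 17 had 0 counts in both. For each gene the log2 fold change of CPM was taken as *Myl3*-KO over control, with a 95% Clopper-Pearson interval from the counts. A two-sided exact binomial test set the counts against the library totals, and its p-values were adjusted by Benjamini-Hochberg over all 12431 genes tested. With 1 library per genotype no difference has a replicate check, the test compares the reads of these libraries and not the genotypes, and the intervals cover counting error only. All counts of the 53 genes were whole numbers. Only *Wnt5b* overlapped another counted gene, *Fbxl14* on the opposite strand, and the strand used in counting is not given in the sources used here.

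Promoter windows from RefSeq on GRCm38.p6, reaching from 250 bases before a gene's start to 50 bases after it, were found for 35 of the 53 genes. Of these, 3 genes are printed, namely *Wnt10b* as the most abundant ligand per length, *Axin2* as a standard target of beta-catenin and *Dkk1* as a secreted inhibitor that is itself a known target. The TCF and LEF recognition words CTTTGAA and CTTTGAT were searched on both strands. Capitals mark a match. The *Wnt10b* window is chr15:98778101-98778400 on the minus strand, that of *Axin2* is chr11:108920099-108920398 on the plus strand, and that of *Dkk1* is chr19:30549447-30549746 on the minus strand, each written 5′ to 3′ along the gene.
Wnt10b: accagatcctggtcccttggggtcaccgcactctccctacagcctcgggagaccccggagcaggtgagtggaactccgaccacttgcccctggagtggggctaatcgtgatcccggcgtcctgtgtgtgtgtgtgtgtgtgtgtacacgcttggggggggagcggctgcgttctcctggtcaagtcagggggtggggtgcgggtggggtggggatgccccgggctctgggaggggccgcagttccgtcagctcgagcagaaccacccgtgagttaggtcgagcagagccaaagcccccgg
Axin2: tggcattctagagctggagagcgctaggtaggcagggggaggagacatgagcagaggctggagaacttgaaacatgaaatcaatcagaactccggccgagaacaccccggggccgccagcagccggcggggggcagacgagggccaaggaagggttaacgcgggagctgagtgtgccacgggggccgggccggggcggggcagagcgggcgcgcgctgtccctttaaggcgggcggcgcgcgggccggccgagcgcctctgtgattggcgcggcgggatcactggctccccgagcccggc
Dkk1: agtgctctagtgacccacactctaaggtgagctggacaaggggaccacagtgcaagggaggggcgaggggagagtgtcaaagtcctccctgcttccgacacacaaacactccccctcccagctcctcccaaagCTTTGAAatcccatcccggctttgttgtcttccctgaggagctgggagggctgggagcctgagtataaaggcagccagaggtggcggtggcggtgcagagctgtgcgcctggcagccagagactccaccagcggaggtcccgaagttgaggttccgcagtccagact

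The *Dkk1* window held 1 match, starting 117 bases before the gene's start in RefSeq, and those of *Wnt10b* and *Axin2* held none of these words. The GENCODE M21 annotation places the start of *Dkk1* at 30549665, and by it the match lies inside the gene. Some genes have several starts, and 3 of the 39 windows of these genes (7.69%) held a match, those of *Dkk1*, *Wnt5b* and *Wnt11*, against 8.65% of the 32851 windows of all genes. A match is a run of letters and no measure of binding.

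*Wnt10b*, whose protein acts through beta-catenin and is known for favouring bone formation over fat formation, was the most abundant of the 53 genes per length (FPKM) in both libraries and higher in *Myl3*-KO. *Wnt5a*, a ligand of the ROR receptors, was lower. None of the 29 genes tested was 2-fold or more higher, as 2.16% of all genes tested were, or lower by as much, as 1.19% were, which makes 3.35% in either direction. These shares come largely from genes with few counts, while 23 of the 29 had at least 50. Of the 11123 genes with at least 50 counts, only 67 were 2-fold or more higher and 30 lower. At a limit of 1.5-fold, *Wnt9a*, *Dkk3* and *Lgr5* were higher, 3 of 29 genes against 6.17% of all genes tested, and *Dkk1* was lower, 1 of 29 against 2.9%. *Lgr5* with 15 and 19 counts and *Dkk1* with 12 and 6 had intervals that included no difference. Beyond counting error, at an adjusted p under 0.05, 6 genes were higher, *Wnt10b*, *Wnt9a*, *Fzd1*, *Fzd2*, *Fzd6* and *Dkk3*, and 1 was lower, *Wnt5a*. Among all genes tested the same limit was passed upwards by 18.6% and downwards by 16.8%. The median log2 fold change was 0.03 over the 29 genes and 0.02 over all genes tested. With a variation of 20% between libraries assumed on top of counting error, 0 of the 29 genes had an adjusted p under 0.05, and 0 had an unadjusted p under 0.05 (edgeR exact test).

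**Figure D1:**
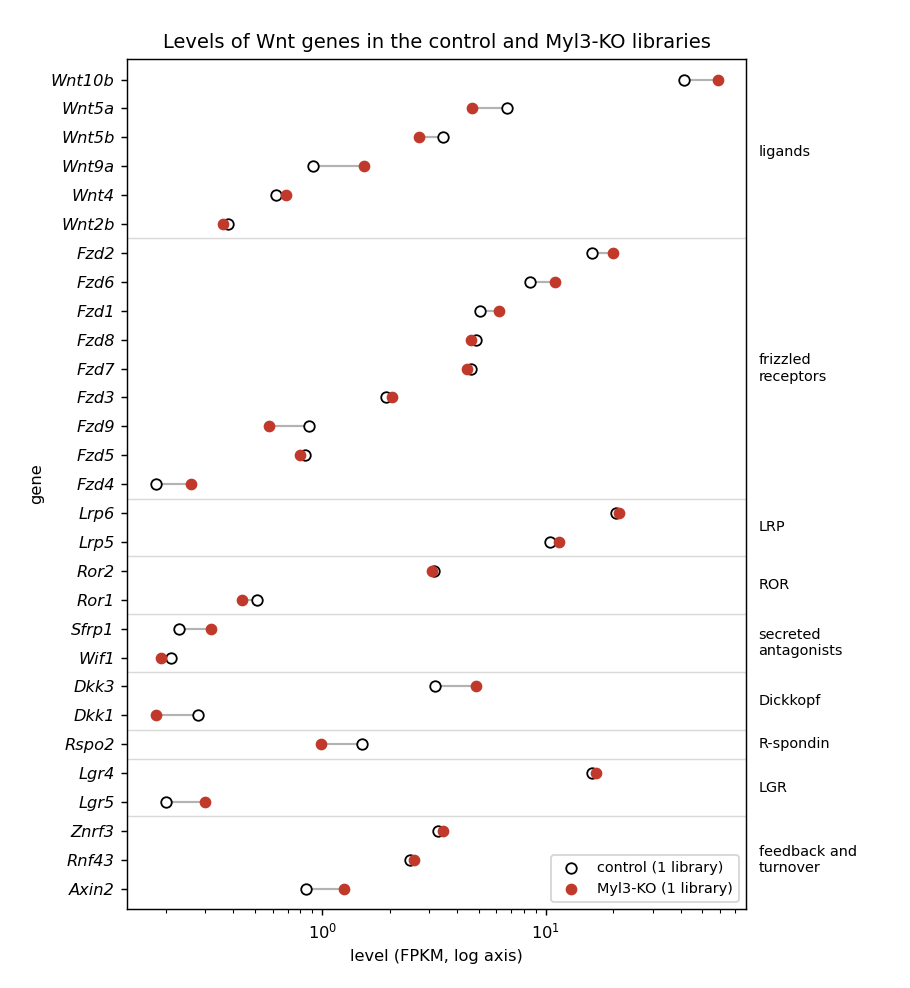
Levels of the 29 tested genes in FPKM (reads scaled by gene length and library) on a log axis, with the control library as open circles and the *Myl3*-KO library as filled circles, grouped by role. *Wnt10b* stands highest at 41.28 and 58.80 FPKM, and *Lrp6*, *Fzd2* and *Lgr4* follow in both libraries.

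Among the ligands, *Wnt10b* (ENSMUSG00000022996, chromosome 15 from 98770712 to 98778150 on GRCm38) had 1736 control counts and 1852 knockout counts, which is 98.6 and 137 CPM. The larger count came from the smaller library. The log2 fold change was 0.48 (95% interval 0.38 to 0.57, exact binomial adjusted p = 1.74e-21), or 1.39-fold. *Wnt5a* (ENSMUSG00000021994, chromosome 14 from 28504750 to 28527448) had 539 control counts and 306 knockout counts, a log2 fold change of -0.43 (95% interval -0.64 to -0.23, exact binomial adjusted p = 0.000178). The ratio of *Wnt10b* to *Wnt5a* counts within a library, which needs no scaling between libraries, was 3.22 in the control (95% interval 2.92 to 3.55) and 6.05 in *Myl3*-KO (5.36 to 6.85). These intervals did not overlap, which restates the higher *Wnt10b* and lower *Wnt5a* counts above and adds no separate support. They too cover counting error only.

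*Wnt5b*, the close relative of *Wnt5a*, had 144 and 87 counts, a log2 fold change of -0.34 with an interval of -0.74 to 0.05 that included no difference. *Wnt5a* counts were 3.74 times those of *Wnt5b* in the control (95% interval 3.11 to 4.53) and 3.52 times in *Myl3*-KO (2.76 to 4.52), and these intervals overlapped. *Wnt9a*, a ligand known from joint formation, had 53 control counts and 69 knockout counts, a log2 fold change of 0.77 (95% interval 0.23 to 1.31, exact binomial adjusted p = 0.0159). It had the largest ratio of the genes with at least 50 counts. *Wnt4*, another ligand expressed in joints, had 46 and 39 counts (log2 fold change 0.15, interval -0.51 to 0.80), and *Wnt2b* had 22 and 16 (log2 fold change -0.07, interval -1.10 to 0.92). Neither differed beyond counting error.

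The other 13 Wnt genes were nearly or wholly without reads. *Wnt1* had 1 count in each library and *Wnt8a* had 1 count in the control only. *Wnt2*, *Wnt3*, *Wnt3a*, *Wnt6*, *Wnt7a*, *Wnt7b*, *Wnt8b*, *Wnt9b*, *Wnt10a*, *Wnt11* and *Wnt16* had 0 counts in both, which at these depths allows up to 0.17 CPM in the control and up to 0.223 CPM in *Myl3*-KO. Per length, *Wnt10b* thus made up 77.3% of the summed FPKM of the ligand genes in the control and 85.5% in *Myl3*-KO, while *Wnt5a* went from 12.5% to 6.76% and *Wnt5b* from 6.50% to 3.95%. The summed counts of all ligands had a log2 fold change of 0.28 (95% interval 0.20 to 0.37). Without *Wnt10b* the sum went from 806 to 518 counts, a log2 fold change of -0.25 (95% interval -0.41 to -0.09), so the direction of the sum was that of 1 gene.

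**Figure D2:**
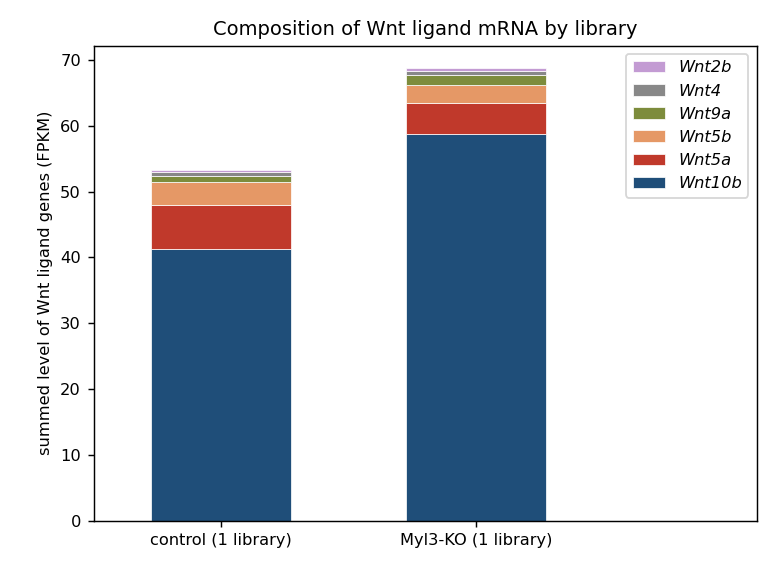
Summed level of the Wnt ligand genes in FPKM by library, with a bar segment for each of the 6 ligands tested and 1 library per bar. The sum over all ligands is 53.39 FPKM in the control and 68.79 FPKM in *Myl3*-KO, and the *Wnt10b* segment is the larger part of both bars.

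Frizzled genes encode the receptors that bind Wnt proteins, and 9 of the 10 were tested. *Fzd2* was the most abundant per length at 16.12 FPKM in the control and 19.89 FPKM in *Myl3*-KO, with 1040 and 982 counts and a log2 fold change of 0.30 (95% interval 0.18 to 0.43). *Fzd6* had 614 counts in each library, which for the smaller *Myl3*-KO library is a log2 fold change of 0.39 (95% interval 0.22 to 0.55). *Fzd1* had 375 and 348 counts (log2 fold change 0.28, 95% interval 0.06 to 0.49). These 3 receptors differed beyond counting error, with exact binomial adjusted p = 2.01e-05 for *Fzd2*, 2.43e-05 for *Fzd6* and 0.0327 for *Fzd1*.

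*Fzd7* (4.62 and 4.45 FPKM) and *Fzd8* (4.85 and 4.61 FPKM) had intervals that included no difference. *Fzd7* had 369 and 272 counts (log2 fold change -0.05, interval -0.29 to 0.18). *Fzd8* had 286 and 208 (log2 fold change -0.07, interval -0.34 to 0.19). Within a library the counts of *Fzd6* were 1.66 times those of *Fzd7* in the control (95% interval 1.46 to 1.9) and 2.26 times in *Myl3*-KO (1.95 to 2.61). These intervals did not overlap either, which restates the log2 fold changes of *Fzd6* and *Fzd7* and adds no separate support. Counting error is all that they cover.

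*Fzd3* had 433 and 351 counts (log2 fold change 0.08, interval -0.12 to 0.29), and *Fzd5* had 101 and 75 (log2 fold change -0.04, interval -0.49 to 0.40). The fewest counts among those tested were those of *Fzd9*, with 35 and 18 counts (log2 fold change -0.57, interval -1.48 to 0.29), and *Fzd4*, with 21 and 24 (log2 fold change 0.58, interval -0.33 to 1.5). Their wide intervals include no difference as well as a 2-fold one. *Fzd10* was at 0 counts in both libraries. The summed frizzled counts went from 3274 to 2892, a log2 fold change of 0.21 (95% interval 0.13 to 0.28).

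The co-receptors of the beta-catenin branch were well covered and close between the libraries. *Lrp6* was the second most abundant of the 53 genes per length, with 3336 control counts and 2596 knockout counts, and its log2 fold change of 0.02 had an interval of -0.05 to 0.10. *Lrp5* had 946 and 788 counts (log2 fold change 0.12, interval -0.02 to 0.26). The counts of *Lrp6* were 3.53 times those of *Lrp5* in the control (95% interval 3.28 to 3.79) and 3.29 times in *Myl3*-KO (3.04 to 3.57).

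Of the ROR receptor kinases, which carry *Wnt5a* signals, *Ror2* was the more abundant, at 3.16 FPKM in the control and 3.11 FPKM in *Myl3*-KO. It had 222 and 167 counts, a log2 fold change of -0.02 (interval -0.32 to 0.27). *Ror1* had 52 and 34 counts (log2 fold change -0.23, interval -0.90 to 0.42). Neither receptor gene differed beyond counting error, and for *Ror1* the interval is wide.

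**Figure D3:**
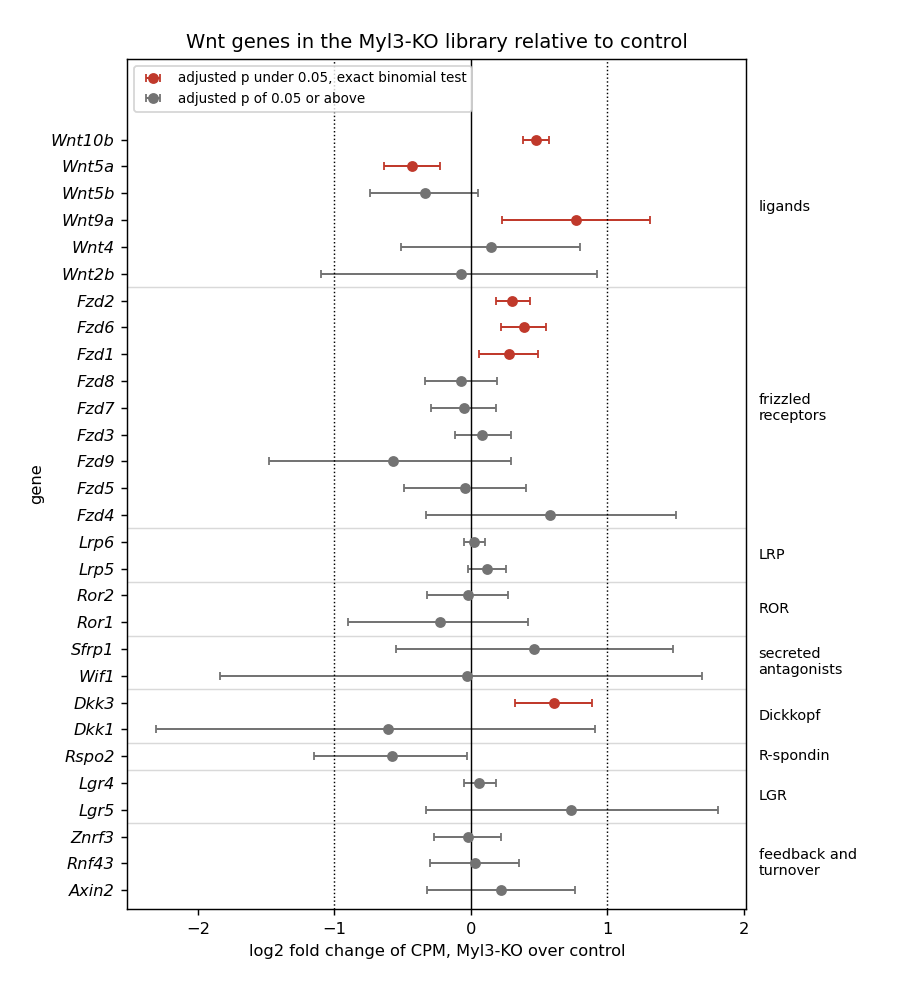
Log2 fold change of CPM, *Myl3*-KO over control, for the 29 tested genes by role, with 95% counting intervals from 1 library per genotype. Red points passed the exact binomial test at an adjusted p under 0.05 and dotted lines mark a 2-fold difference, which no point reaches.

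The antagonists were scarce apart from *Dkk3*. Secreted frizzled-related proteins and WIF1 bind Wnt proteins outside the cell. *Frzb*, a cartilage gene of this group, had 0 counts in both libraries, as had *Sfrp2* and *Sfrp5*, while *Sfrp4* had 1 count in *Myl3*-KO only. *Sfrp1* had 18 and 19 counts (log2 fold change 0.46, interval -0.55 to 1.48) and *Wif1* had 8 and 6 (log2 fold change -0.03, interval -1.84 to 1.69). All 6 genes together had 26 counts in each library, and differences between the libraries were not detectable at this depth.

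Dickkopf proteins are secreted, and DKK1 blocks LRP5 and LRP6, whereas DKK3 is a divergent member. *Dkk3* (ENSMUSG00000030772, chromosome 7 from 112116017 to 112159057) had 189 control counts and 220 knockout counts. Its log2 fold change was 0.61 (95% interval 0.32 to 0.89, exact binomial adjusted p = 0.000178), or 1.52-fold. *Dkk1*, whose window is printed above, had 12 and 6 counts (log2 fold change -0.61, interval -2.31 to 0.91), *Dkk2* had 1 count in the control only and *Dkk4* had none. The Dickkopf sum, 202 control counts and 226 knockout counts, was thus nearly all *Dkk3*.

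R-spondins strengthen Wnt signals by binding LGR receptors and by removing the ubiquitin ligases RNF43 and ZNRF3, which take frizzled receptors off the cell surface. *Rspo2* had 82 control counts and 42 knockout counts, a log2 fold change of -0.58 with an interval of -1.15 to -0.03. It had the lowest ratio of the genes with at least 50 counts, but its adjusted p of 0.0916 in the exact binomial test did not pass. *Rspo1* had 0 counts in both libraries, *Rspo3* had 3 and 2, and *Rspo4* had 0 and 1.

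Among the LGR receptors, *Lgr4* carried nearly all reads, with 1430 control counts and 1143 knockout counts (log2 fold change 0.06, interval -0.05 to 0.18). *Lgr5*, a well-known stem cell marker, had 15 and 19 counts (log2 fold change 0.73, interval -0.33 to 1.81), and *Lgr6* had 3 and 5 and was not tested. *Rnf43* had 182 and 142 counts (log2 fold change 0.03, interval -0.30 to 0.35) and *Znrf3* had 329 and 248 (log2 fold change -0.02, interval -0.27 to 0.22). The receptor and ligase side of this arm was close between the libraries where it was well counted.

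*Axin2*, which encodes a scaffold of the beta-catenin destruction complex and is used as a readout of beta-catenin signaling, had 64 control counts and 57 knockout counts. Its log2 fold change was 0.22 with an interval of -0.32 to 0.76, and its exact binomial adjusted p was 0.578. From the deposited FPKM, 0.85 in the control and 1.25 in *Myl3*-KO, came a higher log2 fold change of 0.56, which lies within the counting interval. Of the 23 genes with at least 50 counts, the other 22 had FPKM and count ratios within 0.1 of each other on the log2 scale.

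The rest of the pathway was read from lists that together held 79 further tested genes. *Lef1*, *Tcf7*, *Notum* and *Apcdd1* are on more than 1 list and are counted in each. In the list of the beta-catenin branch, from the dishevelled proteins to the nuclear factors, 26 of 30 genes had a log2 fold change above 0, as had 6553 of all 12431 genes tested, and the median was 0.15. Of these 12 were higher and 1 was lower beyond counting error, limits passed by 18.6% and 16.8% of all genes tested, and 0 differed by 2-fold. *Ctnnb1*, which encodes beta-catenin, had 17922 and 14016 counts (log2 fold change 0.03, interval -0.00 to 0.06). The tankyrase gene *Tnks2* had a log2 fold change of 0.07 (interval 0.02 to 0.11), and the casein kinase genes *Csnk1d* and *Csnk1a1* had 0.15 (0.09 to 0.21) and -0.08 (-0.15 to -0.01). *Lef1*, a nuclear partner of beta-catenin, had 40 and 54 counts, a log2 fold change of 0.82 (interval 0.20 to 1.45, exact binomial adjusted p = 0.0222).

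Genes known as targets of this branch did not share a direction. Among the 16 tested that are outside the 53, the median log2 fold change was 0.06, with 5 higher and 2 lower beyond counting error, against 18.6% and 16.8% of all genes tested. *Lef1* was among these 5 and also among the higher genes of the branch list above. Of the most abundant, *Myc* was lower (log2 fold change -0.31, interval -0.38 to -0.24), *Cyr61* (0.22, interval 0.12 to 0.33) and *Runx2* (0.11, interval 0.04 to 0.19) were higher, and *Cd44* had 0.04 (interval -0.04 to 0.13). Only *Nkd2* and *Ccnd1* reached 2-fold, both higher, against 2.16% of all genes tested. *Nkd2* had under 50 counts over both libraries. *Ccnd1* had more, and of the 11123 genes with at least 50 counts 67 were 2-fold or more higher. *Nkd2*, which encodes a dishevelled-binding inhibitor, had 12 control counts and 28 knockout counts (log2 fold change 1.61, interval 0.59 to 2.72), while its relative *Nkd1* had 66 and 47 (log2 fold change -0.10). *Ccnd1*, which encodes cyclin D1, had 136.14 and 221.72 counts (log2 fold change 1.09, interval 0.78 to 1.41).

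On the export side, *Wls*, which carries Wnt proteins to the cell surface, had 4121 and 3449 counts (log2 fold change 0.13, interval 0.06 to 0.19). The acyltransferase gene *Porcn* had 223 and 203 (log2 fold change 0.25, interval -0.03 to 0.53), and the deacylase gene *Notum* had 53 and 35 (log2 fold change -0.21, interval -0.87 to 0.43). *Trabd2b*, a membrane protease gene that cleaves Wnt proteins, had 92 and 118 (log2 fold change 0.75, interval 0.34 to 1.15). Of these 4 genes 2 were higher beyond counting error, *Wls* and *Trabd2b*, where 18.6% of all genes were.

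Among 8 other receptors and cofactors tested, 2 were higher and 2 lower beyond counting error, beside 18.6% and 16.8% of all genes. *Ryk*, a Wnt-binding receptor gene, had 2915 and 1986 counts (log2 fold change -0.17, interval -0.25 to -0.08), and *Tspan12*, a frizzled cofactor gene, had 621 and 394 (log2 fold change -0.27, interval -0.46 to -0.09). *Ptk7*, a co-receptor gene of the polarity branch, had 930 and 818 (log2 fold change 0.20, interval 0.06 to 0.34). *Tmem2*, on the list though not an established Wnt receptor or cofactor gene, had 1083 and 874 (log2 fold change 0.08, interval -0.05 to 0.21).

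In the list of the polarity and calcium branch, 25 genes were tested, with a median log2 fold change of 0.13, 5 higher and 4 lower beyond counting error, shares near the 18.6% and 16.8% of all genes. The GTPase genes *Rac1* and *Rhoa* were lower by little, with log2 fold changes of -0.09 (interval -0.13 to -0.04) and -0.08 (-0.14 to -0.03). *Nfatc3* had a log2 fold change of -0.09 (interval -0.16 to -0.01) and *Prkca* one of 0.13 (0.03 to 0.22). *Celsr2*, a polarity cadherin gene, had 24 control counts and 50 knockout counts (log2 fold change 1.44, interval 0.72 to 2.21), and *Camk2a* had 4 and 7 (log2 fold change 1.19, interval -0.78 to 3.41). These were the genes of the list at 2-fold or more, as were 2.16% of all genes on the higher side, and the interval of *Camk2a* includes no difference.

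**Figure D4:**
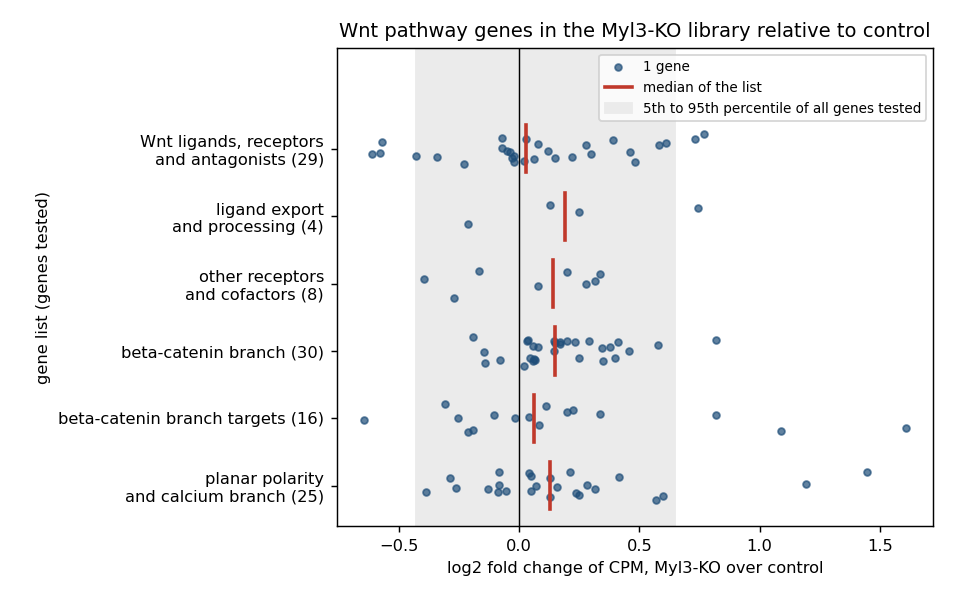
Log2 fold change of CPM, *Myl3*-KO over control, for the 29 tested ligand, receptor and antagonist genes and for the other pathway lists, 1 point per gene in each list, with the median of each list as a red bar. *Lef1*, *Tcf7*, *Notum* and *Apcdd1* are on more than 1 list and have a point in each. The grey band spans the 5th to 95th percentile of all 12431 genes tested, -0.43 to 0.65. The points of *Nkd2*, *Celsr2*, *Camk2a* and *Ccnd1* lie beyond 1.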

How the data were processed

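Total RNA of cultured rib chondrocytes was extracted, and mRNA enriched from it with oligo beads was sequenced on an Illumina instrument, with 1 library per genotype. The authors deposited, for each gene, an expected count, which is an estimated number of reads without normalization, and an FPKM value, which is scaled by gene length and library and rounded to 2 decimals. The labels name GRCm38 as the genome build. The aligner, the counting tool and the strand setting are not given in the sources used here. Of the column headings NC and KO, the first was read as the control.

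CPM are expected counts over the library total, and counts under 3 were raised to 3 for ratios. Counts were rounded for the exact binomial test and the intervals, with Benjamini-Hochberg adjustment over genes whose counts summed to at least 10. The replicate-based tests of edgeR and DESeq2 leave no residual degrees of freedom here and were not run. The test was tried on simulated data. Coordinates are those of GENCODE M21. Python 3.11.15 with scipy 1.17.1, edgeR 4.0.16, DESeq2 1.42.0 and R 4.3.3 were used.

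All tested members were named, and of each pathway list the 4 most abundant tested genes and those at least 2-fold different. *Lef1*, *Nkd1* and marker genes outside this rule were chosen after their values were seen. The pairs of genes compared within a library were picked by hand, outside this rule. The genes, lists and rules were chosen with earlier results of these data known. The alternatives were TMM or DESeq2 scaling, other filters on low counts, 1 count added to each library, the ratio of FPKM + 0.1, a limit of 1.5-fold, and preset coefficients of variation.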

Additional observations from a re-analysis of the deposited data

How the results depend on the processing

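No paired analysis was possible because there is 1 library per genotype, and no replicate could be left out. Scaling with TMM or with DESeq2 kept the same 6 genes higher and 1 lower beyond counting error, and moved no log2 fold change by over 0.02. The ratios of the 29 genes stayed within their counting intervals under all 4 settings tried on them. The median over the genes tested was between 0.01 and 0.06, and the direction of each class sum was kept, that of the feedback genes being at 0.00 with TMM. With no filter on low counts 1 gene was at least 2-fold higher, *Lgr6* with 3 and 5 counts. A limit of 1.5-fold gave 3 higher, *Dkk3*, *Lgr5* and *Wnt9a*, and 1 lower, *Dkk1*, and the intervals of *Lgr5* and *Dkk1* included no difference. Under a preset coefficient of variation of 0.2, edgeR's exact test gave 0 higher and 0 lower, with 0 of the 29 at an unadjusted p under 0.05 and 4 of all 12431 genes called. Under 0.4 it gave 0 and 0 as well, with 1 of all genes called. The lowest adjusted p among the 29 was 1 under both. Variation between cultures was not measured in this design, and 24 of the 53 genes had too few counts to be compared.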

Other observations

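The pathway column of the deposited table, looked at after the values were seen, lists 144 genes under Wnt signaling, of which 40 are among the ligand, receptor and antagonist genes described above. Of the other 104 genes 91 were tested, with a median log2 fold change of 0.04, and 21 were higher and 12 lower in *Myl3*-KO beyond counting error in the exact binomial test, against 18.6% and 16.8% of all genes tested. At 2-fold or more were *Nkd2*, *Ccnd1* and *Camk2a*, all higher, against 2.16% of all genes, and *Camk2a* with 4 and 7 counts had an interval that included no difference.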
